A study of Homo sapiens with 6 samples.

Results

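Immune checkpoint ligands are surface proteins through which a tumour cell dampens the lymphocytes and macrophages that meet it. The 9 genes described here were CD274, PDCD1LG2, CD276, VTCN1, NT5E, CD47, PVR, LGALS9 and CD70. They were taken by gene symbol from a table of 74852 loci, and each symbol matched 1 locus. The values come from RNA of MDA-MB-231 cells, an established line from a human triple-negative breast cancer (TNBC), a subtype which lacks the estrogen and progesterone receptors and amplification of HER2. In the si-SAM68 group (3 libraries) the cells received 4 pooled siRNAs that target SAM68, and in the si-CTRL group (3 libraries) pooled control siRNAs, in both cases in 2 rounds, and they were harvested 24 h after the second round by the sample labels. SAM68, encoded by KHDRBS1, is an RNA-binding protein that regulates splicing, and the comparison asks which transcripts change when it is depleted. The methods of the study give another harvest time, culture medium and extraction kit than the labels. All 6 libraries are of 1 cell line, no tumour or immune cells were cocultured, and each siRNA acted only as part of its pool. Nothing in the labels says that replicates came from separate experiments, so that the p-values measure the spread between these libraries.

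PD-L1 (CD274) and PD-L2 (PDCD1LG2) bind PD-1 on T cells and lower their activation. B7-H3 (CD276) and B7-H4 (VTCN1) are related proteins of the B7 family. CD73 (NT5E) is an enzyme of the cell surface that makes adenosine from AMP, and adenosine restrains T and NK cells. CD47 binds SIRPα on macrophages as a signal against phagocytosis, CD155 (PVR) is bound by TIGIT, CD96 and CD226 on lymphocytes, galectin-9 (LGALS9) binds TIM-3 among other glycoproteins, and CD70 is the ligand of CD27. Only mRNA was measured here, so that the amount of these proteins on the cell surface is not known from these data.

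The reads on all loci were between 52625492 and 82568487 per library. KHDRBS1 had a normalized read count (reads divided by the library's size factor) of 14482.6 to 15660.4 in the si-CTRL libraries and of 583.3 to 670.2 in the si-SAM68 libraries. Si-CTRL replicate 1 and si-SAM68 replicate 2 stood apart from the other libraries of their groups (chi-square per degree of freedom over loci 75.8 and 80.2 for si-CTRL replicate 1 against the others, which differed by 12.5, and 380.8 and 384.0 for si-SAM68 replicate 2 against 20.6). In si-SAM68 replicate 2 the rRNA locus took 15.12% of the reads, against 1.83% to 3.17% in the other libraries. This locus is included in the chi-square, which was not computed without it. Whether the other loci of si-SAM68 replicate 2 also stood apart was therefore not tested. The genes that mark this line (VIM, CD44, KRT8, KRT18, EGFR and CAV1) had at least 3138 in every library. ESR1 had at most 15.2, CDH1 at most 4.60 and EPCAM at most 9.20, and PGR was listed at 0, whereas ERBB2 (2412.9 to 3447.0) and GATA3 (330.8 to 542.4) were present. Of 12 leukocyte markers, 5 were listed at 0 in every library, among them CD4 and CD8A. PTPRC, which encodes CD45, had at most 13.6. In contrast, ITGAM (56.2 to 115.9) and NCAM1 (11.1 to 29.5) had reads in every library, and limma called neither (adjusted p = 0.320 and 0.631). The markers summed to between 94.9 and 148.7 in the si-CTRL and between 118.4 and 152.7 in the si-SAM68 libraries.

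The siRNAs are shown first, since they define the groups and since the letters of one of them recur in 2 of the members described below. They are printed 5′ to 3′ as the sense strand, in RNA letters. The capitals mark the 7 bases that a target RNA would share if it paired with bases 2 to 8 of the guide strand, the seed.
siSAM68_1: gcacccauaugGACGUUAu
siSAM68_2: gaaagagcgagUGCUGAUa
siSAM68_3: uaugauggaugAUAUCUGu
siSAM68_4: aaagaucucugUAUUGGGa
Each of the 4 matched a KHDRBS1 transcript of GENCODE over its whole length.

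Levels of the 9 genes spanned a wide range. Per kb of the longest coding transcript in GENCODE, the normalized read count in si-CTRL cells was highest for CD70 (3951.7 ± 221.5 per kb, SD, n = 3), followed by NT5E (2595.2 ± 565.9), PVR (1622.3 ± 209.9), CD276 (1436.2 ± 120.9), CD47 (843.6 ± 197.5), PDCD1LG2 (543.0 ± 131.8) and CD274 (160.9 ± 17.5). The levels per kb of PVR and CD276 overlapped between libraries, as did those of CD47 and PDCD1LG2, and the other neighbours in this order did not overlap. In si-SAM68 cells CD70 remained first (3088.9 ± 183.5 per kb), and the levels per kb of NT5E (1500.4 ± 175.6), CD276 (1416.7 ± 99.8) and PVR (1388.3 ± 55.4) overlapped. VTCN1 and LGALS9 had fewer than 2 per kb in every library. The authors' own locus lengths were not used, so the order per kb depends on the transcript chosen.

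SAM68 depletion went with a higher level of CD274 and with lower levels of NT5E and CD70. A mean of at least 10 normalized read counts over the 6 libraries was required for testing, which 7 of the 9 genes passed. VTCN1 and LGALS9 did not pass it. Of the 7, limma called 3 at an adjusted p-value under 0.05, compared with 10.7% of the 18849 loci tested. The 1 higher call (CD274) stands beside 4.47% of loci called higher, and the 2 lower calls (NT5E and CD70) beside 6.23% called lower. At the thresholds of the study (unadjusted p-value of at most 0.05 and fold change of at least 1.5) CD274 and NT5E were called, 2 of 7, against 7.67% of loci. These calls apply the thresholds to limma and are not the calls of the study's own analysis. The groups did not overlap in 4 of 7 members (CD274, NT5E, CD70 and PVR), against 33.9% of loci. The median log2 fold change was -0.09 over the 7 members and 0.005 over all loci tested. With so few genes, these counts describe the members and no list-wide shift was tested. A smaller share of expressing cells and a lower level per cell cannot be told apart in bulk RNA.

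**Figure D1:**
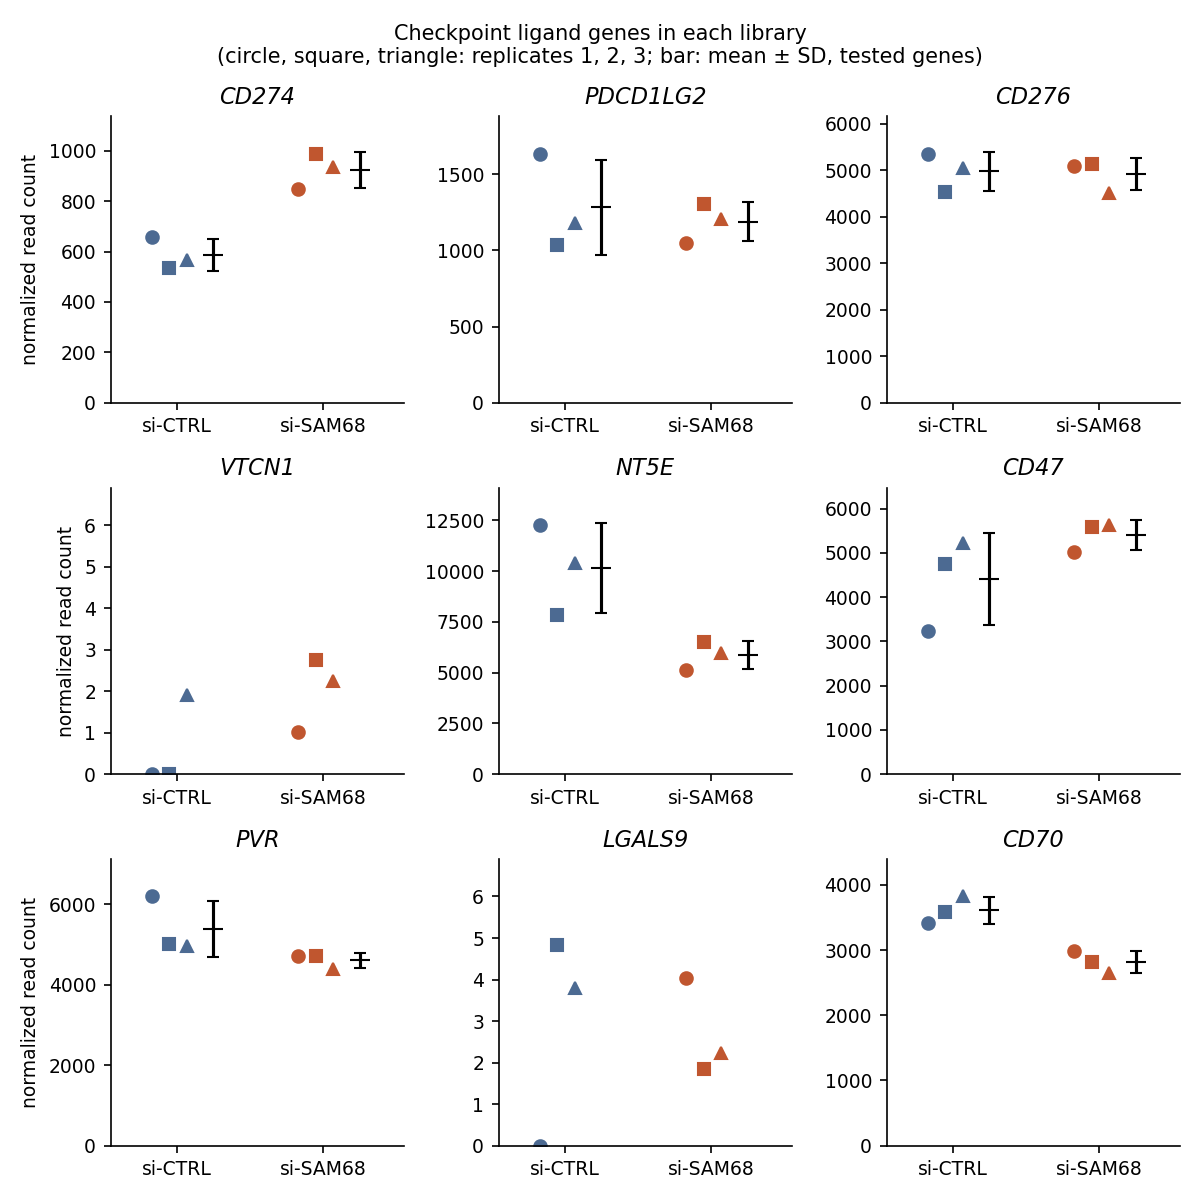
Normalized read count (linear axis from 0) of each of the 9 genes in the 3 si-CTRL (blue) and 3 si-SAM68 (orange) libraries, with the symbol shape giving the replicate number and the bar the mean ± SD of the 7 genes tested. The si-SAM68 libraries lie above all si-CTRL libraries for CD274 and below them for NT5E, CD70 and PVR, and VTCN1 and LGALS9 stay under 5 in every library.

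CD274, on chromosome 9 of hg19 from 5450499 to 5470567 (locus GSHG0030004), had a normalized read count of 657.4, 533.7 and 567.5 in si-CTRL replicates 1, 2 and 3. In si-SAM68 replicates 1, 2 and 3 it was 846.2, 988.0 and 933.9. Every si-SAM68 library was thus above every si-CTRL library. The log2 fold change was 0.66 (standard error 0.11, 95% interval 0.41 to 0.90, adjusted p = 0.00682 from limma), which is an increase of 57.6%. An exact permutation test (two-sided) of this gene alone gave p = 0.1, below which 3 libraries against 3 cannot go. The adjusted p-value stayed under 0.05 in all 16 alternative analyses (at most 0.0465), and without si-SAM68 replicate 2, the library rich in rRNA, the log2 fold change was 0.61 (limma, adjusted p = 0.0370). Without si-CTRL replicate 1 it was 0.74.

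PDCD1LG2, the gene of the other PD-1 ligand, lies next to CD274 on chromosome 9 (5510545 to 5571282). Its normalized read count was 1634.8, 1038.3 and 1179.8 in si-CTRL and 1051.7, 1304.4 and 1207.5 in si-SAM68 replicates 1, 2 and 3, so that the groups overlapped. Si-CTRL replicate 1 was the highest of all. The log2 fold change was -0.09 (95% interval -0.44 to 0.26, adjusted p = 0.754 from limma), and without si-CTRL replicate 1 it was 0.10. The ratio of CD274 to PDCD1LG2 within a library, which does not depend on the scaling between libraries, was 0.402, 0.514 and 0.481 in si-CTRL and 0.805, 0.757 and 0.773 in si-SAM68 replicates 1, 2 and 3. The ratio was thus higher in every si-SAM68 library, by 0.75 on the log2 scale (exact permutation test, two-sided, p = 0.1).

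The other tested loci that reach within 500 kb of CD274 were JAK2, the kinase of the interferon-γ receptor, and PLGRKT, RIC1, ERMP1 and KIAA2026. None of these and not PDCD1LG2 reached an adjusted p-value under 0.05 in limma. Their log2 fold changes were 0.055 for JAK2, 0.20 for PLGRKT, 0.16 for RIC1, 0.23 for ERMP1 and 0.06 for KIAA2026. The locus of PLGRKT spans CD274 and PDCD1LG2 in the table, and had a normalized read count between 503.7 and 811.0. The library kit named in the labels keeps the strand, but whether the counting used it is not given in the sources used here. The share of reads that such overlapping loci could exchange was not tested.

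**Figure D2:**
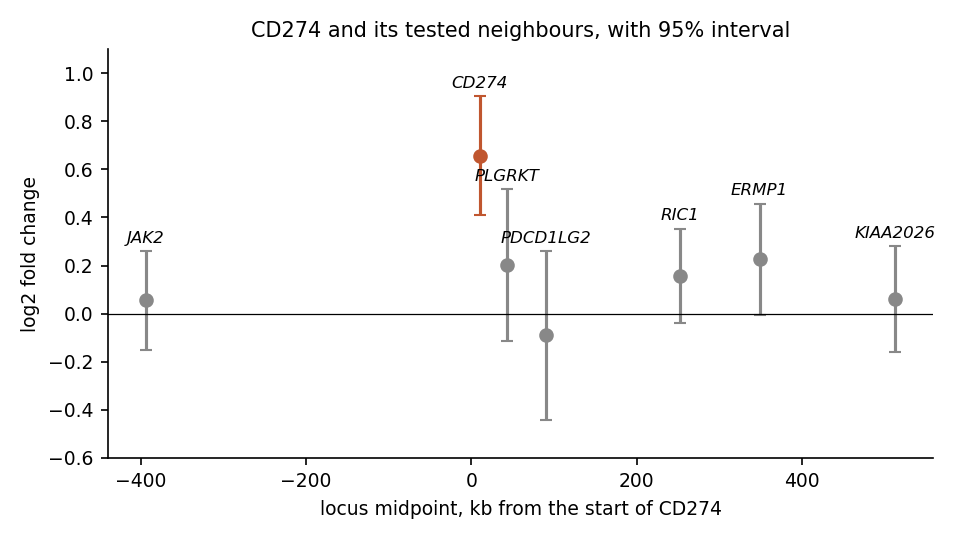
Log2 fold change (si-SAM68 vs. si-CTRL) with its 95% interval for CD274 and the tested loci that reach within 500 kb of it, against the distance of the locus midpoint from the start of CD274 in kb. CD274 at 0.66 (orange, adjusted p under 0.05) lies above the other loci, which range from -0.09 for PDCD1LG2 to 0.23 for ERMP1.

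CD274 is a gene induced by interferon-γ. Its promoter is shown because it was the member that rose. The RefSeq promoter, chr9:5450292-5450591 of GRCh38.p14 on the plus strand, runs from 250 bases before to 50 after the start. The capitals mark, from 5′ to 3′, a pair of overlapping ISRE cores, 1 GAS element (TTCNNNGAA) and 1 GC box (GGGCGG), searched on both strands.
CD274 promoter: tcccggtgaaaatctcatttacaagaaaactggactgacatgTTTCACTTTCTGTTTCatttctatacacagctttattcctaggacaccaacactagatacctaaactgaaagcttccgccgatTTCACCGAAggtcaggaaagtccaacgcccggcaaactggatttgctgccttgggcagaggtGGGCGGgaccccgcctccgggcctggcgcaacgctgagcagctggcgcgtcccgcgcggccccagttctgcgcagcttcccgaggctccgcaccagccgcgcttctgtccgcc
Of 35116 promoters of the same length, 3.57% held an ISRE core, 7.66% a GAS element and 44.95% a GC box. AP-1 (TGAGTCA or TGACTCA), NF-kB, E-box (CACGTG) and TATA box (TATAAA) letters were not found in this window. A match of letters is a description only.

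Of 23 genes known to act on CD274 transcription or its mRNA, all 23 were tested, 2 were called higher and 1 lower. Over all loci tested, 4.47% were called higher and 6.23% lower. The median log2 fold change of the 23 was 0.04. IFNGR1, the ligand-binding chain of the interferon-γ receptor, rose from 2308.4, 2582.1 and 2910.9 in si-CTRL to 3636.8, 3707.1 and 3524.3 in si-SAM68 replicates 1, 2 and 3 (log2 fold change 0.48, adjusted p = 0.0125 from limma). STAT3 rose by 0.31 (limma, adjusted p = 0.0301), and STAT2, which acts in the type I interferon response, fell by 0.40 on the log2 scale (limma, adjusted p = 0.0421). Leaving out any 1 si-SAM68 library left none of the 23 under the threshold, and of the 16 alternative analyses IFNGR1 stayed under it in 12 and STAT2 and STAT3 in 9 each. IRF1, a transcription factor induced by interferon-γ, had a log2 fold change of 0.05 (limma, adjusted p = 0.819). Among factors acting on PD-L1 protein, 12 of 13 were tested and limma called 0, compared with 10.7% of all loci tested. Of these 12, 4 had an unadjusted p-value under 0.05 in limma, whereas edgeR called 0 and DESeq2 1. The 2 with the highest mean were CMTM6, which protects PD-L1 from degradation (22504.5, 30496.4 and 32272.0 in si-CTRL, and 33869.4, 36420.1 and 40234.4 in si-SAM68 replicates 1, 2 and 3, log2 fold change 0.39, adjusted p = 0.0884), and STT3B, a subunit of the oligosaccharyltransferase (0.01, adjusted p = 0.945).

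CD276 and VTCN1 are further members of the B7 family. CD276 (chromosome 15, 73968554 to 74006859) had 5358.0, 4529.9 and 5058.5 in si-CTRL and 5084.4, 5143.1 and 4516.3 in si-SAM68 replicates 1, 2 and 3, and the groups overlapped. Its log2 fold change was -0.02 with a 95% interval of -0.22 to 0.18 (limma, adjusted p = 0.920). VTCN1 (chromosome 1, 117686210 to 117753582) had 0, 0 and 2 reads in si-CTRL and 1, 3 and 2 reads in si-SAM68 replicates 1, 2 and 3. A count of 0 allows up to 3 reads, a normalized read count of 2.76 to 3.75 depending on the library, and no VTCN1 value was above that limit. A difference in VTCN1 was therefore not detectable at this depth.

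NT5E (chromosome 6, 86159302 to 86205509) had the largest decrease among the tested members. Its normalized read count was 12265.9, 7848.1 and 10389.8 in si-CTRL and 5147.9, 6513.7 and 5974.1 in si-SAM68 replicates 1, 2 and 3. All si-SAM68 libraries were below all si-CTRL libraries, and the si-CTRL libraries were spread more widely (SD 2217.2 against 687.9). The log2 fold change was -0.77 (standard error 0.15, 95% interval -1.11 to -0.44, adjusted p = 0.0125 from limma), a 1.71-fold lower level. The differences between libraries of the same replicate number were -1.25, -0.27 and -0.80 on the log2 scale. The call was lost without si-SAM68 replicate 1 (limma, adjusted p = 0.0625) and without si-SAM68 replicate 3 (0.0668), although the log2 fold change stayed at -0.68 and -0.79. It was kept without si-CTRL replicate 1 (-0.63, adjusted p = 0.00563) and without si-SAM68 replicate 2 (-0.85, adjusted p = 0.0246).

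Around NT5E, 10 of 15 genes for extracellular nucleotides and adenosine were tested, of which 0 were called higher and 2 lower. Over all loci tested, 4.47% were called higher and 6.23% lower. The median log2 fold change of the 10 was 0.12. ENTPD1, which encodes CD39, the enzyme that supplies AMP to CD73, was at 0 in 5 of 6 libraries and at 2.02 in the other, so that it was at or under the limit of detection. PNP, which cleaves inosine, fell from 8996.3, 9001.6 and 9495.2 to 6828.3, 6927.7 and 7096.7 (log2 fold change -0.40, adjusted p = 0.00738 from limma). ADK, the kinase that returns adenosine to AMP inside the cell, fell by 0.35 on the log2 scale (limma, adjusted p = 0.0378). PNP stayed under the threshold in all 16 alternative analyses and ADK in 9. ADORA2B, the low-affinity adenosine receptor, had a log2 fold change of 0.20 (limma, adjusted p = 0.164), and the locus of ADORA2A joins SPECC1L, so that its reads cannot be assigned.

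CD70 (chromosome 19, 6583135 to 6591163) had 3418.3, 3584.6 and 3820.7 in si-CTRL and 2988.0, 2819.5 and 2653.0 in si-SAM68 replicates 1, 2 and 3. The groups did not overlap. The log2 fold change was -0.36 (standard error 0.08, 95% interval -0.54 to -0.17, adjusted p = 0.0243 from limma), a change of -21.8%, which is below the fold change of 1.5 that the study required. With the replicate number as a block the adjusted p-value was 0.0503 in limma. The call was also lost without si-CTRL replicate 2 (adjusted p = 0.0580), si-CTRL replicate 3 (0.0884), si-SAM68 replicate 2 (0.0986) or si-SAM68 replicate 3 (0.110), with a log2 fold change between -0.40 and -0.31 whichever library was left out. CD27, the receptor of CD70, was at 5.59 to 12.4 and was not tested.

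CD47 (chromosome 3, 107761941 to 107809935) had 3247.1, 4752.6 and 5222.9 in si-CTRL and 5013.9, 5588.3 and 5628.9 in si-SAM68 replicates 1, 2 and 3. Si-CTRL replicate 1 was far below the rest, and si-CTRL replicate 3 lay above si-SAM68 replicate 1. The log2 fold change was 0.32 (95% interval -0.02 to 0.67, adjusted p = 0.209 from limma). Without si-CTRL replicate 1 it was 0.12 (limma, adjusted p = 0.327), less than the value with all libraries. Of 7 genes fixed around CD47, 6 were tested and 1 was called, compared with 10.7% of all loci tested. SIRPA, the receptor of CD47, fell from 4471.9, 3304.7 and 3654.3 to 2757.3, 2946.4 and 2447.5 (log2 fold change -0.48, adjusted p = 0.0313 from limma), a call that was kept in 11 of 16 alternative analyses. Since the cells are a tumour line, this is SIRPA of the tumour cells themselves. THBS1, a secreted ligand of CD47, and QPCTL, the enzyme that modifies the CD47 end bound by SIRPα, had log2 fold changes of -0.13 and -0.11 (limma, adjusted p = 0.345 and 0.488).

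PVR (chromosome 19, 45147098 to 45169429) had 6199.2, 5023.8 and 4959.6 in si-CTRL and 4715.7, 4729.1 and 4403.5 in si-SAM68 replicates 1, 2 and 3. The groups did not overlap, but si-CTRL replicate 3 and si-SAM68 replicate 2 were close. The log2 fold change was -0.22 (95% interval -0.43 to -0.001, unadjusted p = 0.0488 and adjusted p = 0.183 from limma), which did not pass the test, and without si-CTRL replicate 1 it was -0.11. Of the related nectins, NECTIN3 rose by 0.33 on the log2 scale (limma, adjusted p = 0.0465), a call kept in 9 of 16 alternative analyses, whereas NECTIN2, which also binds TIGIT, had a log2 fold change of 0.02 (limma, adjusted p = 0.942). LGALS9 (chromosome 17, 25956824 to 25976585) had 0, 5 and 4 reads in si-CTRL and 4, 2 and 2 reads in si-SAM68 replicates 1, 2 and 3. It has near-identical copies (LGALS9B and LGALS9C) with which reads could be shared, and a difference was not detectable at this depth.

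**Figure D3:**
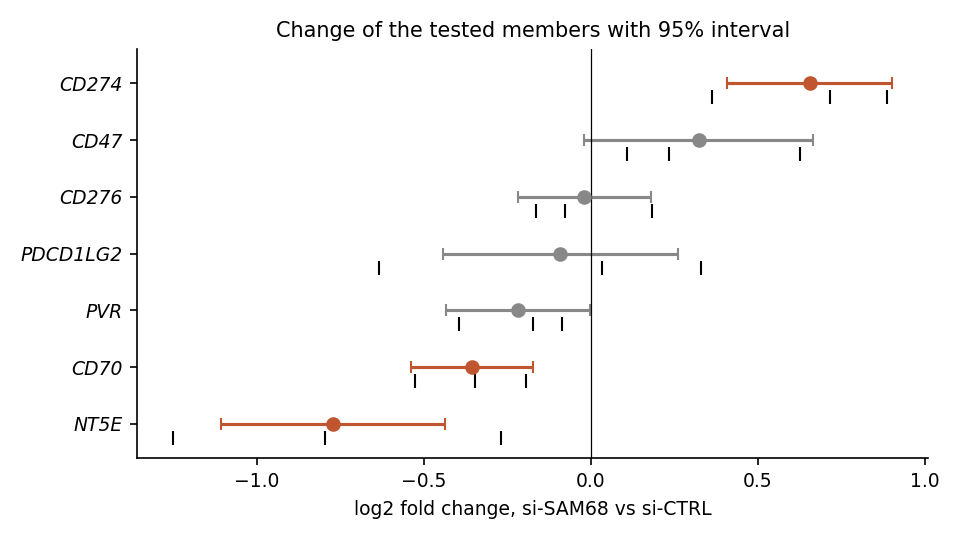
Log2 fold change (si-SAM68 vs. si-CTRL) of the 7 tested members with its 95% interval from limma (orange, adjusted p under 0.05), and below each the 3 differences between libraries of the same replicate number (vertical ticks). CD274 at 0.66 lies to the right of 0, CD70 at -0.36 and NT5E at -0.77 lie to the left, and the 3 ticks of PDCD1LG2 and of CD276 fall on both sides of 0.

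The 2 members that fell share a stretch of 7 letters with an siRNA of the SAM68 pool in the 3′UTR. The match is to siSAM68_2 printed above, and the sites are shown because this siRNA was present only in the si-SAM68 cells. They are printed 5′ to 3′ in DNA letters from GENCODE (GRCh38), with the match in capitals.
NT5E site, base 1274 of a 3′UTR of 1787 bases: aaaatacccaTGCTGATgaaatgacct
CD70 site, base 8 of a 3′UTR of 181 bases: ccactgcTGCTGATtagggttttt
CD47, which did not pass the test, held matches of siSAM68_3 and siSAM68_4, and the other tested members held none of this pool. In all, 3 of 7 tested members had a match of the SAM68 pool, compared with 29.8% of 11967 tested genes with a 3′UTR. The match of siSAM68_2 alone was in 14.0% of these genes. Among loci with it 13.52% were called lower and 4.25% higher, and among loci without it 7.24% and 5.44%. For siSAM68_3 the shares were 8.01% lower and 7.01% higher with its match, and 8.14% and 5.0% without it. For siSAM68_4 they were 9.49% and 5.87% with its match, and 7.98% and 5.21% without it. For siSAM68_1, matched by no tested member, they were 21.59% and 3.41% with its match, and 7.92% and 5.3% without it. Matches of the control pool were in 5 of 7 tested members, compared with 56.3% of the genes. CD47, which did not pass the test, held 6 of them, CD274, the member that rose, 5, and PDCD1LG2, CD276 and CD70, of which only CD70 passed the test, and was lower, 1 each. Their log2 fold changes were 0.32 for CD47, 0.66 for CD274, -0.09 for PDCD1LG2, -0.02 for CD276 and -0.36 for CD70. NT5E (-0.77) and PVR (-0.22) held no match of the control pool. CD47 and CD274, with the most control matches, had a log2 fold change above 0, and CD47 also held 2 matches of the SAM68 pool. Among loci with UUUUCUG, the letters of 1 control siRNA, 7.68% were called higher and 8.68% lower, and among loci without it 4.0% and 7.83%. For UUGUGUG the shares were 7.39% higher and 8.45% lower with it, and 4.67% and 8.03% without it. For UUUUCCU they were 7.59% and 7.91% with it, and 3.96% and 8.24% without it. CD274 held sites of each of these control siRNAs. Genes with longer 3′UTRs hold more matches by length alone. The part of such matches in the values of NT5E, CD70, CD274 and CD47 was not tested.

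Beyond the 9 genes, 38 other surface ligands and immune modulators were listed, of which 29 were tested, 4 were called higher and 2 lower, and 23 were not called. Over all loci tested, 4.47% were called higher and 6.23% lower. The median log2 fold change of the 29 was 0.02. ULBP2, a ligand of the activating NK receptor NKG2D, fell from 1479.8, 1061.5 and 1178.8 in si-CTRL to 564.2, 592.4 and 563.0 in si-SAM68 replicates 1, 2 and 3, -1.10 on the log2 scale (limma, adjusted p = 0.00101), which exceeded in size the changes of all 7 tested members. The other NKG2D ligands tested did not pass, with log2 fold changes of -0.33 for ULBP1, -0.02 for ULBP3, 0.06 for MICA and 0.09 for MICB. ICAM1, the adhesion molecule bound by LFA-1 on lymphocytes, is joined with ICAM4 in 1 locus, which fell from 7059.1, 5928.4 and 5438.7 to 3713.3, 4265.5 and 3689.7 (log2 fold change -0.65, adjusted p = 0.00588 from limma).

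The higher calls included BTN3A2 and BTN3A3, butyrophilins of the family through which γδ T cells sense phosphoantigens. BTN3A2 rose from 1001.1, 960.8 and 1015.3 to 1561.5, 1539.9 and 1509.2 (log2 fold change 0.63, adjusted p = 0.00171 from limma), BTN3A3 by 0.47 (adjusted p = 0.0157), and BTN3A1 had 0.20 (adjusted p = 0.168). These 3 genes are close paralogs and could share reads. NCR3LG1, which encodes B7-H6, the ligand of the NK receptor NKp30, rose from 418.7, 398.1 and 389.8 to 564.2, 578.6 and 545.1 (log2 fold change 0.48, adjusted p = 0.0145 from limma). ULBP2, the ICAM1 locus and BTN3A2 stayed under the threshold in all 16 alternative analyses, BTN3A3 in 14 and NCR3LG1 in 12. The ligands of CD28 and CTLA-4 were near 0, with CD86 listed at 0 in every library and CD80 at most 1.94.

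**Figure D4:**
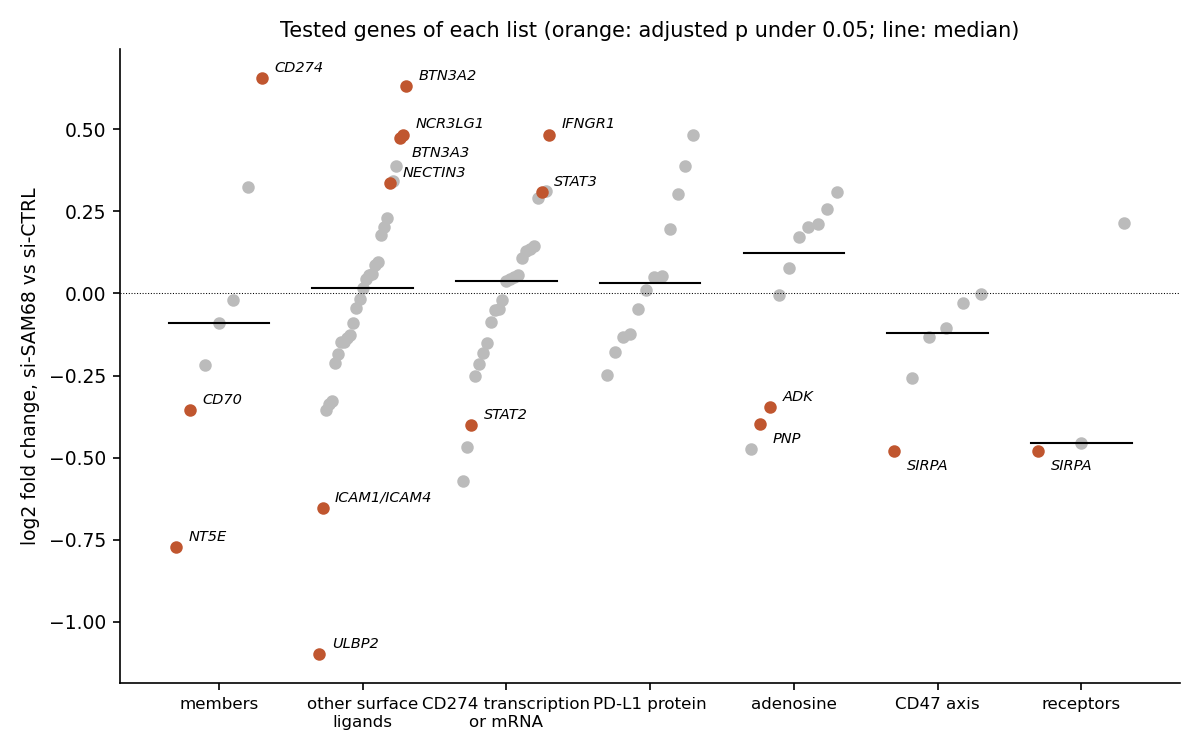
Log2 fold change (si-SAM68 vs. si-CTRL) of each tested gene in the 9-gene set and in the 6 lists around it, with the genes at an adjusted p under 0.05 in orange and named, and the median of each list as a line. Of the 7 tested members 3 are orange, each of the lists around them has between 0 and 6 orange genes, and ULBP2 at -1.10 lies farthest from 0. SIRPA stands in both the CD47 and the receptor list.

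Of 13 receptors of these ligands, most of them known from leukocytes, 3 were tested. PDCD1, ICOS and TIGIT were listed at 0 in every library. Besides SIRPA, LAG3 (68.8 to 111.8) and CD226 (5.52 to 19.0) had enough reads, and neither passed the test (log2 fold change 0.22 and -0.46, adjusted p = 0.568 and 0.563 in limma).

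The genes most like a member were sought among 12112 loci with a mean of at least 50, by Pearson's r of log2 values over the 6 libraries. For CD274 they were MN1 (r = 0.995), RNF8 (0.994) and MKLN1-AS (0.994), which had log2 fold changes of 0.29, 0.12 and 0.50, all smaller than that of CD274, and RNF8 did not pass the test (limma, adjusted p = 0.309). For NT5E they were HBEGF, a ligand of EGFR (r = 0.995), PLAUR, the urokinase receptor (0.994), and AJAP1 (0.994), which had log2 fold changes of -0.75, -0.44 and -0.54. The 6 libraries fall into 2 groups and share their scaling, and these values are given as a description of the order only.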

How the data were processed

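RNA-seq libraries of polyadenylated RNA (input 1 µg) from MDA-MB-231 cells were sequenced by the authors, 3 per group, and the labels gave each sample's group and replicate number. Per the labels, the submitters' processing notes name STAR 2.4.0, hg19, FastQC, Picard, SAMtools and DESeq2. The deposited values are a signal, namely the reads of each FAST DB locus after division by a size factor per library from DESeq2. All values (100%) were whole multiples of 1 step per library within 0.01 reads, and the reads were recovered from them. The counting program and its use of strand are not given in the sources used here.

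The test was limma 3.58.1 (R 4.3.3) with an eBayes trend on log2 values (pseudocount of 1). It covered 18849 loci whose mean reached 10, with Benjamini-Hochberg adjustment over all loci. The pseudocount understates changes of genes with few reads. Programs were tested on simulated data. Libraries of the same replicate number deviated together from their group means (r = 0.105, 0.231 and 0.125, against at most 0.007 for other pairs), so a replicate block was an alternative. The others were pseudocounts of 0.1 and 5, no filter, a minimum mean of 50, TMM factors, quantile normalization, no trend, each library left out, and edgeR 4.0.16 and DESeq2 1.42.0 on the recovered reads. The members, the gene lists and the tests were chosen with earlier results of these data known. The genes named are the members, KHDRBS1 as the targeted gene, and from each list those with an adjusted p-value under 0.05 (at most 5 per direction), or the 2 with the highest mean where none passed, and the 3 loci most like CD274 and NT5E. Other genes (neighbours of CD274, relatives and partners of the named genes) were chosen after their values were seen. Promoters are from RefSeq (GRCh38.p14), where 7 of the 9 members matched, transcripts from GENCODE, and siRNA sequences from the study's list. Intervals and limits for 0 reads cover the spread between libraries or counting error only. Results for some items are not reported here.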

Additional observations from a re-analysis of the deposited data

How the results depend on the processing

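CD274 kept its direction and its call in all 16 alternatives, with a log2 fold change between 0.59 and 0.74. Between 1 and 3 members had an adjusted p-value under 0.05 when 1 library was left out, the lowest count being without si-SAM68 replicate 3, and 1 member (CD274) had it with eBayes without a trend, where NT5E (-0.77, adjusted p = 0.0729) and CD70 (-0.36, adjusted p = 0.0800) lost the call. With the replicate block, the log2 fold change of CD70 was the same (-0.36) and its adjusted p-value 0.0503, and 1 gene of the list for PD-L1 protein passed, against 0 without it. The block also moved the calls from 3 to 4 genes for CD274 transcription and from 2 to 3 for adenosine, and moved no other call of a member. The number of members past the thresholds of the study was 2 in all 16. With 1 library left out, the log2 fold change ranged from -0.95 to -0.63 for NT5E and from -0.40 to -0.31 for CD70, from -0.23 to 0.10 for PDCD1LG2 and from -0.086 to 0.041 for CD276, the latter pair changing sign without si-CTRL replicate 1, and CD276 also without si-SAM68 replicate 3 (0.036 and 0.041). The number of genes called then ranged from 3 to 8 for other surface ligands, 0 (with any 1 si-SAM68 library left out) to 7 (without si-CTRL replicate 1) for CD274 transcription, 0 to 1 for PD-L1 protein, 1 to 4 for adenosine, and 0 to 1 for the CD47 axis and for receptors. The highest counts for other surface ligands (8), CD274 transcription (7) and adenosine (4) were all without si-CTRL replicate 1. Every fit with 1 library left out has fewer degrees of freedom, and the cause of the changed counts was not tested. Depth limits VTCN1 and LGALS9, with at most 5 reads per library.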
